A study of Mus musculus and Homo sapiens with 180 samples.

Results

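The erythroid transcription factors GATA1, GATA2, KLF1, TAL1, LMO2, ZFPM1, BCL11A, ZBTB7A, NFE2 and GFI1B were followed by 3′ RNA-seq in 28 libraries of human K562 and HuDEP-2 cells treated with the DOT1L inhibitor SGC0946. These 10 genes were chosen by symbol among the 44430 gene identifiers of the count tables, and the 28 libraries are part of a series of 180 samples on DOT1L inhibition and PRC1.1. K562 is a line from a chronic myeloid leukaemia in blast crisis with erythroid features, and HuDEP-2 is an immortalized human erythroid progenitor line that expands under doxycycline. Both lines received DMSO or SGC0946 at 5 µM for 168 h (4 libraries per group). In the differentiation experiment, HuDEP-2 cells were pretreated for 7 days with DMSO or SGC0946 at 5 µM, as the study's methods give the dose, and were then kept in expansion medium or moved to differentiation medium (3 libraries per group). The labels of all 12 libraries add 72 h after the pretreatment, while the study's figure legend places the RNA-seq at day 2 of differentiation. Expansion medium held dexamethasone, doxycycline, stem cell factor and erythropoietin. Differentiation medium held erythropoietin, doxycycline, less stem cell factor, interleukin 3, heparin, transferrin, insulin and serum, so that every HuDEP-2 library of this experiment carried doxycycline and the comparison of states is also one of media. The study's figure legend on K562 gives 3 biological replicates, while K562 has 4 libraries per group here. The labels do not say which libraries came from separate cultures. The p-values therefore measure the spread between these libraries, part of which may be technical.

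Erythroid differentiation is driven by a small set of DNA-binding factors that work together at shared elements. GATA2 acts in stem and progenitor cells and is replaced at many sites by GATA1, the master regulator of the erythroid programme, in the exchange known as the GATA switch. TAL1, bound through the adaptor LMO2, joins GATA1 in a complex that activates erythroid genes, and ZFPM1 (FOG-1) is a zinc finger cofactor that binds GATA1 directly. KLF1 binds CACCC elements and activates the adult beta-globin gene, NFE2 is the larger subunit of a leucine zipper factor that acts at the globin locus control region, GFI1B recruits a histone demethylase complex to repress its targets, and BCL11A and ZBTB7A repress the fetal gamma-globin genes. DOT1L, the target of SGC0946, methylates a lysine in the core of histone H3 over transcribed genes.

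On GRCh38 with GENCODE v44, the members lie on 9 chromosomes: GATA1 at chrX:48786540-48794311, plus strand; GATA2 at chr3:128479427-128493201, minus strand; KLF1 at chr19:12884422-12887201, minus strand; TAL1 at chr1:47216290-47232225, minus strand; LMO2 at chr11:33858576-33892076, minus strand; ZFPM1 at chr16:88453280-88537031, plus strand; BCL11A at chr2:60450520-60554467, minus strand; ZBTB7A at chr19:4043303-4066899, minus strand; NFE2 at chr12:54292111-54301015, minus strand; and GFI1B at chr9:132944000-132991687, plus strand. KLF1 and ZBTB7A share chromosome 19. The antisense genes GATA2-AS1 and ZFPM1-AS1 are annotated at GATA2 and ZFPM1, and because the strand setting of the counting is not given in the sources used here, reads of the pairs cannot be told apart.

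The 250 bases before the start of the canonical transcript are shown for GATA2, whose level fell with SGC0946 in HuDEP-2, and for KLF1 and TAL1, which rose in K562. They are written on the gene's strand from 5′ to 3′, and capitals mark the GATA letters AGATAA or AGATAG or TGATAA or TGATAG on either strand. None of the 3 windows overlaps an annotated exon, and they are a selection from the members.
GATA2 (chr3:128493202-128493451, minus strand): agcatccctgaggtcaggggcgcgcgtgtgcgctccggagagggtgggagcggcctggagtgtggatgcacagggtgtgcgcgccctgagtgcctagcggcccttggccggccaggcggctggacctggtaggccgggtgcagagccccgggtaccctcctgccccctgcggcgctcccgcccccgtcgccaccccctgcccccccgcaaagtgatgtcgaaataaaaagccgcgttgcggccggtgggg
KLF1 (chr19:12887202-12887451, minus strand): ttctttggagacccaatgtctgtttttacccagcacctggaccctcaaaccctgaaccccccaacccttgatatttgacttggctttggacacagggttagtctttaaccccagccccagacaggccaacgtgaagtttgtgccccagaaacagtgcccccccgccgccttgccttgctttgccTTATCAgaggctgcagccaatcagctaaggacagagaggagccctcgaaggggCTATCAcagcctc
TAL1 (chr1:47232226-47232475, minus strand): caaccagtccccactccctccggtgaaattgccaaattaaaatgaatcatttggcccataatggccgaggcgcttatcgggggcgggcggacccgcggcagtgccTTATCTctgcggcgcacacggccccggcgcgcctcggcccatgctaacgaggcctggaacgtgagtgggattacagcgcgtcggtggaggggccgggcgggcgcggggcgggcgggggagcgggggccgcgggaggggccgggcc
The KLF1 window held 2 GATA matches and TAL1 held 1, while the GATA2 window held none of these letters. Over the members, 4 of 10 windows held a GATA match, KLF1, TAL1 and GFI1B among them, against 16.7% of the 19962 windows of protein-coding genes. The CACCC element, spelled CCNCACCC, was in 2 of 10 member windows (GATA1 and NFE2) and in 19.8% of all windows. The E-box letters CAGNTG were in 3, KLF1 and GFI1B among them, against 39.3%, and the NFE2 letters TGANTCA were in 1 (TAL1) against 4.73%. The E-box and GATA letters can overlap in 1 stretch. NFE2, which also rose in K562, had no GATA match in its window, of which 64 bases overlap an annotated exon. Annotated exons also overlap 187 bases of the GFI1B window and 50 bases of the GATA1 window, so the matches there need not lie outside exons. A match is a run of letters and not a bound site.

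Library totals were 6939093 to 12550004 counts in K562, 5216015 to 9499861 in HuDEP-2 at 168 h and 5583064 to 13681475 in the differentiation experiment. The K562 SGC0946 libraries were all deeper than the DMSO ones, and the SGC0946 libraries of the differentiation experiment were all shallower than any DMSO library in the same medium. A gene with a count of 0 could lie at up to 0.219 to 0.575 CPM, the value of 3 counts in these libraries, a limit that covers counting error only. Of 9 erythroid markers, all had reads in every group. Their summed level was 2272 to 3028 CPM in K562, 14662 to 20714 CPM in HuDEP-2 at 168 h and 59312 to 77012 CPM after differentiation. In K562, AHSP and SLC4A1 stayed at or under 1.097 CPM, and the progenitor markers KIT, CD34 and ITGA4 each stayed at or under 0.218 CPM. In HuDEP-2, ITGA4 was at 61.3 to 172 CPM, KIT at 9.36 to 71.2 CPM and CD34 at no more than 1.12 CPM. Megakaryocyte markers summed to 1.64 to 14.0 CPM, with PF4 at 0 counts in every HuDEP-2 group, and myeloid markers to 1.63 to 55.2 CPM, with ELANE, PRTN3 and AZU1 at 0 counts everywhere. Reads were present for 8 of the 11 myeloid markers in both K562 groups and for 6 to 8 in the HuDEP-2 groups. LYZ was among them in K562, at a mean of 17.0 CPM with DMSO and 34.9 CPM with SGC0946.

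In K562, SGC0946 was followed by higher levels of 4 of the 9 factors that could be tested, NFE2, KLF1, LMO2 and TAL1, and by a lower level of none. NFE2 and KLF1 rose about as far as each other, and GATA1, GATA2, GFI1B, ZFPM1 and ZBTB7A did not pass the test. Over all 10276 genes tested, 34.9% were called (17.7% higher and 17.2% lower), so a changed gene was common in this comparison. The fold changes of all 9 factors were above 0 in this fit, while GATA2 was at -0.031 when libraries were scaled by their totals, at -0.088 when thinned to the smallest and as low as -0.048 with 1 library left out. The 9 had a median of 0.42 on the log2 scale against -0.0064 over all genes. In bulk libraries a change in the number of cells of a type and a change in RNA per cell cannot be told apart.

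NFE2 was at 182, 186, 188 and 203 CPM (counts scaled to a common library size by edgeR's TMM method) in the 4 DMSO libraries and at 394, 349, 386 and 430.1 CPM in the 4 SGC0946 libraries. The lowest SGC0946 library was well above the highest DMSO library, and the difference was 2.06-fold (1.04 ± 0.075 SE on the log2 scale, edgeR adjusted p = 7.76e-10). KLF1 was at 216, 216, 228 and 156 CPM with DMSO and at 407, 364, 412 and 416 CPM with SGC0946. One DMSO library was lower than the other DMSO libraries and the groups did not overlap, with a 1.96-fold rise (0.97 ± 0.094 SE on the log2 scale, edgeR adjusted p = 6.31e-08). LMO2, the adaptor between TAL1 and the GATA factors, was at 40.9, 39.4, 35.2 and 34.9 CPM with DMSO and at 69.5, 52.3, 61.0 and 79.8 CPM with SGC0946. Every SGC0946 library exceeded every DMSO library, although the SGC0946 libraries were spread more widely, and LMO2 rose 1.75-fold (0.80 ± 0.12 SE on the log2 scale, edgeR adjusted p = 2.33e-05).

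TAL1 rose least of the called factors. Its levels were 18.2, 12.9, 14.2 and 14.3 CPM with DMSO and 20.5, 19.3, 21.3 and 18.3 CPM with SGC0946, groups that were separated by a narrow gap (0.42 ± 0.15 SE on the log2 scale, edgeR adjusted p = 0.0327). This call was lost when DMSO replicate 2, 3 or 4 or SGC0946 replicate 1 or 3 was left out (log2 fold change 0.35 to 0.40, edgeR adjusted p = 0.0599 to 0.0979). It was also lost with library totals in place of TMM (0.37, edgeR adjusted p = 0.0623) and without the filter on low counts (0.42, edgeR adjusted p = 0.0559). The calls of NFE2, KLF1 and LMO2 were kept in every fit with 1 library left out. Across all genes tested, 32.8% had groups that did not overlap, and 4 of the 9 factors did, the same 4 that were called.

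GATA1 was at 339.9, 319.8, 346 and 276 CPM with DMSO and at 367, 344, 361 and 365 CPM with SGC0946, ranges that overlapped, and was not called (0.17 on the log2 scale, 95% interval 0.011 to 0.32, edgeR adjusted p = 0.0916). This and the other intervals are not adjusted for the number of genes. GATA2 was low in K562, at 30.5 ± 3.43 CPM (SD, n = 4) with DMSO and 30.7 ± 2.98 CPM (SD, n = 4) with SGC0946. Its interval ran from a fall to a rise of similar size (0.016 on the log2 scale, 95% interval -0.24 to 0.27, edgeR adjusted p = 0.939). GFI1B was at 149 ± 11.1 CPM (SD, n = 4) and 157 ± 20.7 CPM (SD, n = 4), again without a call (0.076 on the log2 scale, 95% interval -0.11 to 0.27, edgeR adjusted p = 0.558). ZBTB7A and ZFPM1 were at low levels, ZBTB7A at 2.15 to 6.06 CPM with DMSO and 3.81 to 5.07 CPM with SGC0946 and ZFPM1, which was nearer the detection limit, at 0.117 to 1.88 CPM and 1.20 to 2.62 CPM. Neither was called, at log2 fold changes of 0.42 (edgeR adjusted p = 0.369) and 0.91 (edgeR adjusted p = 0.212). Without DMSO replicate 2, ZBTB7A was called, at 0.92 (edgeR adjusted p = 0.0418). BCL11A had 0 or 1 count in each K562 library, under the limit that 3 counts allow, and no fold change is given for it.

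The counts of the other lists in K562 stand against the 34.9% of all genes called (17.7% higher and 17.2% lower). The partner proteins were 2 of 23 higher and 4 lower (median 0.027) on the log2 scale. RCOR1, the scaffold of the demethylase complex that GFI1B recruits, fell from 13.1 ± 2.95 to 5.88 ± 1.62 CPM (SD, n = 4 each; -1.16 ± 0.22 SE on the log2 scale, edgeR adjusted p = 0.000248), and LMO4, an LMO2 relative, fell from 61.2 ± 7.17 to 33.5 ± 2.56 CPM (SD, n = 4 each; -0.87 ± 0.11 SE on the log2 scale, edgeR adjusted p = 2.42e-06). TCF3, the E protein partner of TAL1, rose from 47.7 ± 6.59 to 74.8 ± 10.1 CPM (SD, n = 4 each; 0.65 ± 0.11 SE on the log2 scale, edgeR adjusted p = 0.000142). Other factors of the erythroid programme were 2 of 16 higher and 7 lower (median -0.47), with KLF10 at a log2 fold change of -1.35 ± 0.18 SE and the cytokine signal transducers STAT5B and STAT5A at -1.10 ± 0.13 SE and -0.72 ± 0.076 SE. Haem and iron genes were 4 of 15 higher and 2 lower (median 0.14), led by the transferrin receptor TFRC, which rose from 41.1 ± 5.03 to 111 ± 13.7 CPM (SD, n = 4 each; 1.44 ± 0.11 SE on the log2 scale, edgeR adjusted p = 1.42e-09). Membrane genes were 4 of 17 higher and 6 lower (median -0.047), with ERMAP, a blood group protein, at 0.93 ± 0.20 SE and EPB41, a membrane skeleton protein, at -0.81 ± 0.24 SE. Globin genes were 6 of 9 higher and 1 lower (median 0.44), with HBD at 1.13 ± 0.15 SE and HBE1 at -0.55 ± 0.088 SE. The gamma-globin gene HBG1, named after its values were seen, was at 949 ± 80.4 CPM with DMSO and 1287 ± 204 CPM with SGC0946 (SD, n = 4 each). BCL11A had 0 or 1 count in each of these libraries. The myeloid markers, summed, were at 17.9 to 52.3 CPM with DMSO and 30.97 to 55.2 CPM with SGC0946. The lymphoid markers were at 10.1 to 18.2 CPM and 18.8 to 25.0 CPM, and the part of either in the results was not tested.

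In HuDEP-2 cells after 168 h, 3 of the 10 factors fell with SGC0946 and none rose. GATA2, the progenitor GATA factor, fell by more than any other member that was called, and LMO2 and GFI1B fell by small amounts. Over all 10099 genes tested, 8.16% were called (5.06% higher and 3.10% lower), and scaling by library totals raised the share of calls that were higher from 62.0% to 76.4%. The median log2 fold change of the members was -0.081 against -0.0057 over all genes.

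GATA2 was at 201, 249, 234 and 192 CPM in the DMSO libraries and at 105, 94.8, 92.9 and 101 CPM in the SGC0946 libraries. Every SGC0946 library was far below the lowest DMSO library, and the level was 2.23-fold lower (-1.16 ± 0.091 SE on the log2 scale, edgeR adjusted p = 1.53e-09). LMO2 was at 214, 216, 184 and 186 CPM with DMSO and 172, 161, 167 and 168 CPM with SGC0946, without overlap (-0.26 ± 0.080 SE on the log2 scale, edgeR adjusted p = 0.0433). GFI1B was at 716, 837, 767 and 679 CPM with DMSO and 630.0, 652, 634 and 595 CPM with SGC0946, also without overlap (-0.26 ± 0.071 SE on the log2 scale, edgeR adjusted p = 0.0230). These 3 were the only members whose groups did not overlap, against 13.7% of all genes tested. The LMO2 call was lost without DMSO replicate 1 or 2 or any 1 of the 4 SGC0946 libraries (-0.28 to -0.22, edgeR adjusted p = 0.0756 to 0.124), and the GFI1B call without DMSO replicate 3 or SGC0946 replicate 1, 3 or 4 (-0.26 to -0.23, edgeR adjusted p = 0.0650 to 0.117). Both were lost with library totals (LMO2 at -0.21, edgeR adjusted p = 0.120, and GFI1B at -0.20, edgeR adjusted p = 0.0747). GATA2 was called in every one of these fits.

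BCL11A was at 15.9, 21.2, 14.9 and 17.3 CPM with DMSO and 8.40, 15.8, 9.85 and 12.5 CPM with SGC0946. Only 1 SGC0946 library reached into the DMSO range, and the difference missed the threshold (-0.58 on the log2 scale, 95% interval -1.01 to -0.15, edgeR adjusted p = 0.0967). It was called without that library, SGC0946 replicate 2 (-0.76, edgeR adjusted p = 0.0385). KLF1 was very abundant and variable, at 2603, 3729, 3120.1 and 2294 CPM with DMSO and 3009, 2786, 2814 and 2591 CPM with SGC0946 (-0.069 on the log2 scale, 95% interval -0.27 to 0.13, edgeR adjusted p = 0.763). GATA1 was at 198 ± 16.7 CPM (SD, n = 4) with DMSO and 213 ± 3.14 CPM (SD, n = 4) with SGC0946 (0.11 on the log2 scale, 95% interval -0.051 to 0.27, edgeR adjusted p = 0.477). NFE2 was at 568 ± 28.2 CPM (SD, n = 4) and 609 ± 29.6 CPM (SD, n = 4) (0.10 on the log2 scale, 95% interval -0.037 to 0.24, edgeR adjusted p = 0.433), and TAL1 at 35.0 ± 5.32 CPM (SD, n = 4) and 36.9 ± 4.83 CPM (SD, n = 4) (0.083 on the log2 scale, 95% interval -0.20 to 0.37, edgeR adjusted p = 0.806). ZBTB7A had a log2 fold change of -0.093 (edgeR adjusted p = 0.883). ZFPM1, with 5 to 41 counts per library, was not called (1.18 on the log2 scale, 95% interval 0.085 to 2.28, edgeR adjusted p = 0.205), and was called at 1.97 without DMSO replicate 3 (edgeR adjusted p = 0.0365).

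The fetal genes that BCL11A and ZBTB7A repress were higher with SGC0946: HBG1 went from 32.1 ± 5.91 to 89.8 ± 14.6 CPM (SD, n = 4 each; 1.49 ± 0.14 SE on the log2 scale, edgeR adjusted p = 1.99e-08) and HBG2 from 80.3 ± 12.5 to 213 ± 37.0 CPM (SD, n = 4 each; 1.40 ± 0.12 SE on the log2 scale, edgeR adjusted p = 4.05e-09). HBG1 and HBG2 are near-identical copies, and how their reads were split is uncertain. The list of globins and the alpha chaperone as a whole was 4 of 10 higher and 4 lower (median -0.17) on the log2 scale, against 8.16% of all genes called, and the adult alpha-globin gene HBA1, named after its values were seen, was at 1297 ± 74.1 CPM with DMSO and 824 ± 80.1 CPM with SGC0946 (SD, n = 4 each). Of 23 partner genes tested, LMO4 alone was called, and it rose from 7.04 ± 1.31 to 21.6 ± 4.69 CPM (SD, n = 4 each; 1.60 ± 0.21 SE on the log2 scale, edgeR adjusted p = 8.26e-06). Among other factors of the programme, IKZF1 (Ikaros, a zinc finger factor of lymphoid and erythroid cells) alone was called, at a log2 fold change of -0.63 ± 0.16 SE. Haem and iron genes were 1 of 16 higher and 2 lower (median -0.022) and membrane genes 1 of 19 higher and 3 lower (median -0.21) on the log2 scale. The SGC0946 libraries had more genes with a read (13646 to 13940) than the DMSO libraries (12355 to 12910), and the summed myeloid markers were at 18.1 to 29.8 CPM against 10.1 to 12.3 CPM. Their part in the member results was not tested.

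**Figure D1:**
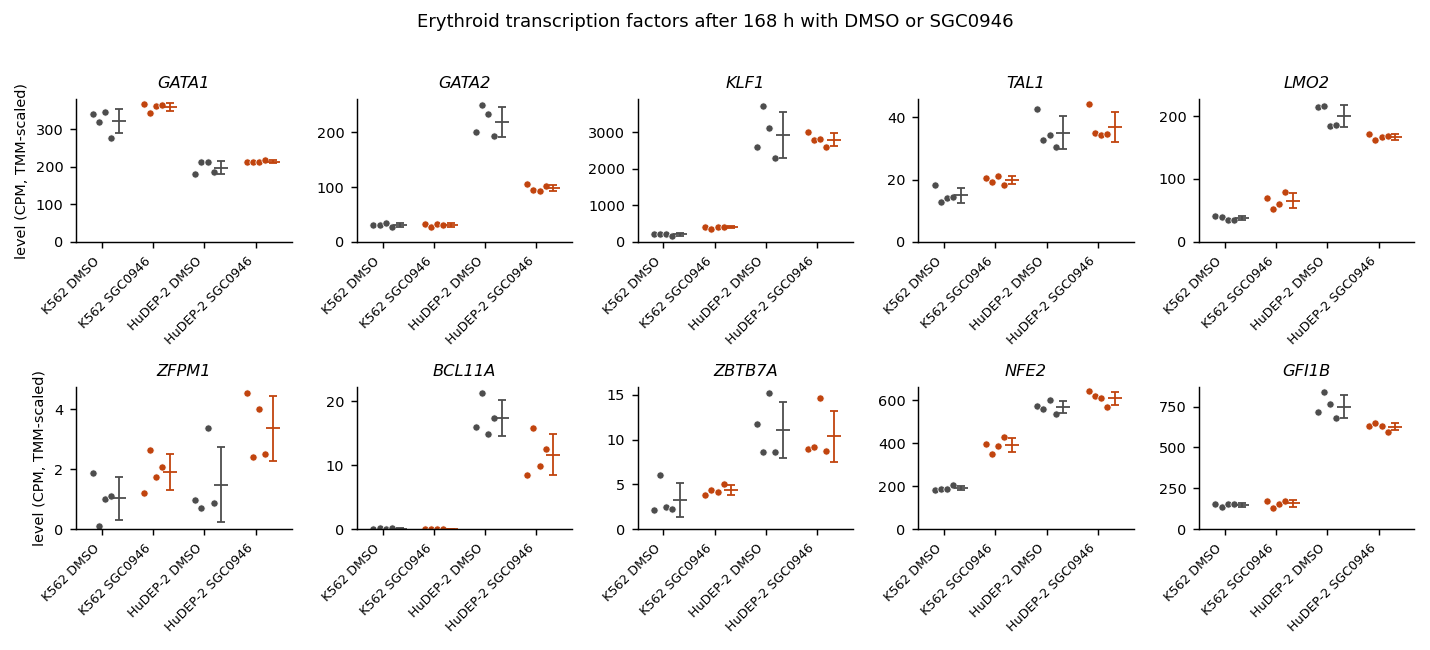
Level of each factor in TMM-scaled CPM (vertical axes from 0), with 1 point per library, in K562 and HuDEP-2 after 168 h with DMSO (grey) or SGC0946 (orange); the bar is the mean and SD of 4 libraries. NFE2, KLF1, LMO2 and TAL1 stand higher with SGC0946 in K562, and GATA2 stands lower with SGC0946 in HuDEP-2.

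The responses of the lines were compared in 1 fit as the K562 change minus the HuDEP-2 change. GATA2, LMO2, KLF1 and NFE2 responded differently, each with the higher change in K562, against 18.9% of 11520 genes called (9.29% higher and 9.60% lower in K562). Scaling by library totals moved the median of all genes to -0.13 and the share of calls higher in K562 from 49.2% to 35.2%. For GATA2 the difference was 1.17 with a 95% interval of 0.87 to 1.47 (edgeR adjusted p = 1.20e-06). It fell in HuDEP-2 and was not called in K562. LMO2 differed in direction as well, rising in K562 and falling in HuDEP-2, with a difference of 1.06 ± 0.14 SE (edgeR adjusted p = 4.64e-06). KLF1 differed by 1.03 ± 0.16 SE (edgeR adjusted p = 2.17e-05). For NFE2 the difference was 0.93 ± 0.099 SE (edgeR adjusted p = 8.35e-08). All 4 were called with any 1 of the 16 libraries left out. TAL1, called in K562 alone, had a difference of 0.33 (edgeR adjusted p = 0.288), so the lines were not shown to differ for it. GFI1B missed the threshold at 0.33 (edgeR adjusted p = 0.0588) and was called without K562 DMSO replicate 4 (0.37, edgeR adjusted p = 0.0265), K562 SGC0946 replicate 2 (0.41, edgeR adjusted p = 0.0107) or HuDEP-2 DMSO replicate 4 (0.37, edgeR adjusted p = 0.0329). It was also called over all 16 libraries with RLE size factors (edgeR adjusted p = 0.0399), without the filter (edgeR adjusted p = 0.0135), with DESeq2 (adjusted p = 0.0327), with the replicate number as a block (edgeR adjusted p = 0.0276) and with libraries thinned to the smallest (edgeR adjusted p = 0.0437), at 0.31 to 0.36, and not by limma-voom (0.32, adjusted p = 0.0666) or with library totals (0.23, edgeR adjusted p = 0.187). GATA1 had a difference of 0.051 (edgeR adjusted p = 0.825), or -0.042 with library totals, ZBTB7A of 0.50 (edgeR adjusted p = 0.459) and ZFPM1 of -0.29 (edgeR adjusted p = 0.886). BCL11A, at 0 or 1 count in each K562 library, is not compared.

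**Figure D2:**
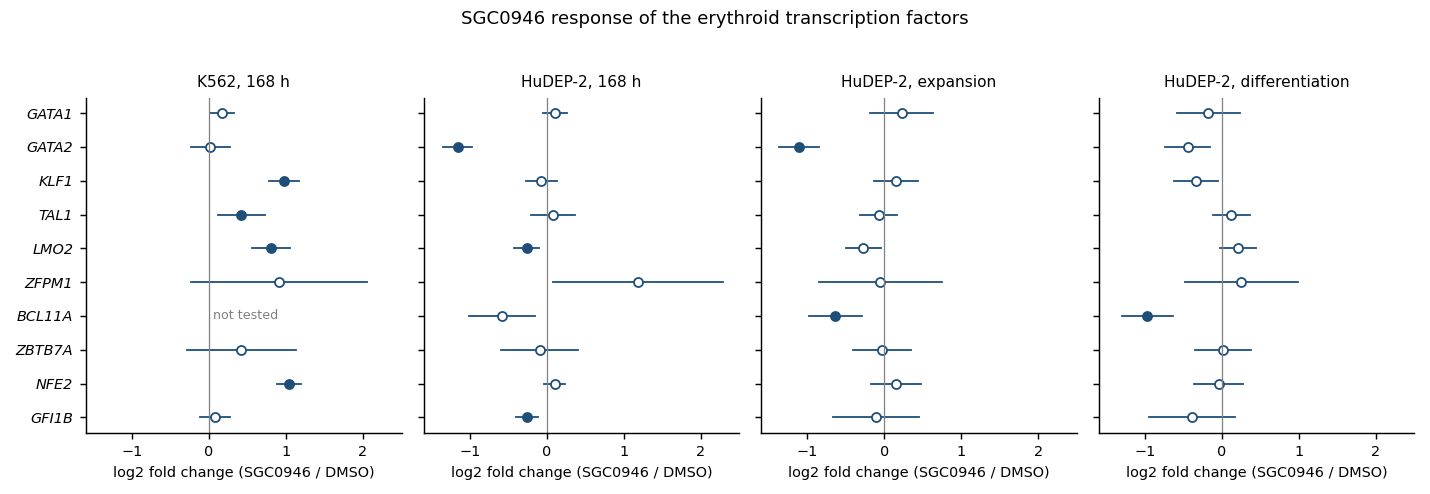
Log2 fold change of each factor with SGC0946 against DMSO (horizontal axes) in 4 settings, with 95% intervals from edgeR; filled points passed an adjusted p of 0.05. GATA2 lies below 0 in all 3 HuDEP-2 panels and at 0.016 in K562, and BCL11A lies lowest in differentiated HuDEP-2 cells, at -0.97.

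The differentiation experiment gave a further set of HuDEP-2 libraries, kept in expansion medium, while the labels give no medium for the 168 h libraries. GATA2 was lower again after SGC0946, and BCL11A was lower as well. Of the 10 members, 2 were called, both lower, against 3.86% of 9848 genes called (3.11% higher and 0.751% lower). GATA2 was at 162, 158 and 143 CPM after DMSO and at 65.0, 82.2 and 67.8 CPM after SGC0946. The groups were far apart and the level was 2.15-fold lower (-1.11 ± 0.12 SE on the log2 scale, edgeR adjusted p = 3.60e-05), close to its log2 fold change of -1.16 in the 168 h libraries. The times differ, as the labels give 7 days of pretreatment and a further 72 h here. Whether SGC0946 was present in the further 72 h was not established. BCL11A was at 12.1, 12.4 and 13.6 CPM after DMSO and at 6.60, 8.75 and 9.04 CPM after SGC0946, without overlap (-0.64 ± 0.16 SE on the log2 scale, edgeR adjusted p = 0.0342). This call was lost without any 1 of the 6 libraries compared (-0.72 to -0.51, edgeR adjusted p = 0.0518 to 0.138). It was also lost without the filter on low counts (-0.66, edgeR adjusted p = 0.0652), with libraries thinned to the smallest (-0.71, edgeR adjusted p = 0.0555) or with these 6 libraries fitted alone (-0.63, edgeR adjusted p = 0.119).

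In this experiment libraries with the same replicate number varied together. For the members, a fit with the replicate number as a block is given wherever it changes a call. Other genes are given without the block unless it is named. With the block, 6 members were called against 15.4% of genes. GATA1 was at 220.0, 348 and 317 CPM after DMSO and at 263, 405 and 366 CPM after SGC0946, so that the groups overlapped while each SGC0946 library exceeded the DMSO library of its number. Its log2 fold change went from 0.22 (edgeR adjusted p = 0.703) to 0.23 ± 0.050 SE (edgeR, adjusted p = 0.000618) with the block. KLF1 went from 0.15 (edgeR adjusted p = 0.717) to 0.15 ± 0.036 SE (edgeR, adjusted p = 0.00176), and NFE2 from 0.15 (edgeR adjusted p = 0.771) to 0.16 ± 0.047 SE (edgeR, adjusted p = 0.0154). LMO2, at 81.2, 70.3 and 68.5 CPM after DMSO and 61.2, 62.6 and 58.4 CPM after SGC0946, went from -0.27 (edgeR adjusted p = 0.252) to -0.27 ± 0.083 SE (edgeR, adjusted p = 0.0194). TAL1 (-0.072, edgeR adjusted p = 0.879), GFI1B (-0.11, edgeR adjusted p = 0.934), ZFPM1 (-0.052, edgeR adjusted p = 0.983) and ZBTB7A (-0.030, edgeR adjusted p = 0.976) were not called in either fit. The gamma-globin genes were higher after SGC0946 in these libraries too, HBG1 from 27.7 ± 6.08 to 125 ± 21.6 CPM (SD, n = 3 each; 2.17 ± 0.18 SE on the log2 scale, edgeR adjusted p = 2.14e-06) and HBG2 at a log2 fold change of 2.36 ± 0.20 SE. IKZF1 was lower (-0.58 ± 0.13 SE) and LMO4 higher (0.90 ± 0.17 SE), as they were at 168 h.

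In DMSO-treated HuDEP-2 cells, differentiation medium came with a fall of GATA2 and LMO2 and a rise of KLF1, NFE2 and BCL11A. The fall of GATA2 was the largest change of a called member. Of the 10 members, 3 were called higher and 2 lower, against 15.7% of 9848 genes called (8.12% higher and 7.60% lower). The median of the members was 0.53 on the log2 scale against 0.0048 over all genes, and the groups of 8 members did not overlap, against 33.1% of all genes.

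GATA2 fell from 162, 158 and 143 CPM in expansion to 23.2, 21.8 and 23.6 CPM in differentiation. The differentiated libraries lay in a narrow band at the bottom, 6.75-fold lower (-2.76 ± 0.13 SE on the log2 scale, edgeR adjusted p = 4.59e-09). LMO2 was at 81.2, 70.3 and 68.5 CPM in expansion and 55.6, 50.4 and 54.6 CPM in differentiation, apart by a clear margin (-0.45 ± 0.11 SE on the log2 scale, edgeR adjusted p = 0.00909). KLF1 rose from 1202, 1555 and 1493 CPM to 1868, 2258 and 2179 CPM, and its lowest differentiated library was above the highest expansion library (0.57 ± 0.13 SE on the log2 scale, edgeR adjusted p = 0.00840). NFE2 rose from 251, 353 and 325 CPM to 398, 522 and 487 CPM, likewise without overlap (0.60 ± 0.15 SE on the log2 scale, edgeR adjusted p = 0.0141). BCL11A rose from 12.1, 12.4 and 13.6 CPM to 19.8, 19.3 and 17.7 CPM, and its groups were apart too (0.58 ± 0.15 SE on the log2 scale, edgeR adjusted p = 0.0142). The NFE2 call was lost without differentiation DMSO replicate 2 or 3 or expansion DMSO replicate 1 (0.46 to 0.57, edgeR adjusted p = 0.0551 to 0.0712), and the BCL11A call without expansion DMSO replicate 2 (0.55, edgeR adjusted p = 0.0558). With library totals BCL11A was at 0.45, edgeR adjusted p = 0.0529, and with libraries thinned to the smallest at 0.48, edgeR adjusted p = 0.0930, so both ended its call. GATA2, KLF1 and LMO2 were called with any 1 library left out.

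GATA1 went from 220.0, 348 and 317 CPM in expansion to 369, 501 and 453 CPM in differentiation. The groups did not overlap and each library rose against the expansion library of its number, while the unpaired test missed the threshold (0.58 ± 0.19 SE on the log2 scale, edgeR adjusted p = 0.0514). GATA1 was called unpaired by DESeq2 (adjusted p = 0.0397), by limma-voom (adjusted p = 0.0464), and by edgeR without the filter (adjusted p = 0.000963), with libraries thinned to the smallest (adjusted p = 0.0403) or with the compared libraries alone (adjusted p = 0.0442), at log2 fold changes of 0.57 to 0.61. With the replicate block GATA1 was called at 0.59 ± 0.049 SE (edgeR, adjusted p = 2.30e-15), and without differentiation DMSO replicate 1 it was called unpaired at 0.70 (edgeR adjusted p = 0.0345). The block also called GFI1B, which went from 202, 381 and 375 CPM to 360.1, 527 and 521 CPM. The replicate 1 libraries were the lowest of both groups, and its value moved from 0.56 (edgeR adjusted p = 0.169) to 0.59 ± 0.051 SE (edgeR, adjusted p = 2.67e-14). TAL1 went from 34.1 ± 1.87 CPM (SD, n = 3) to 41.6 ± 2.06 CPM (SD, n = 3), at 0.29 (edgeR adjusted p = 0.0934) without and 0.29 ± 0.098 SE (edgeR, adjusted p = 0.0171) with the block. In all, 8 members were called with the block, against 36.8% of genes. ZFPM1 and ZBTB7A were not called, at 0.50 (edgeR adjusted p = 0.359) and 0.30 (edgeR adjusted p = 0.260). ZBTB7A had 1 high expansion library and was called without it (expansion DMSO replicate 1), at 0.53 with an edgeR adjusted p of 0.0257.

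The downstream erythroid genes moved with differentiation. The counts of the lists stand against 15.7% of all genes called (8.12% higher and 7.60% lower). Of 19 membrane genes tested, 18 rose and none fell (median 0.76 on the log2 scale), with the anion exchanger SLC4A1 going from 25.2 ± 2.42 to 117 ± 8.19 CPM (SD, n = 3 each; 2.22 ± 0.11 SE on the log2 scale, edgeR adjusted p = 6.46e-09). Of 15 haem and iron genes, 10 rose and none fell (median 0.55), with ALAS2, the first enzyme of erythroid haem synthesis, going from 204 ± 38.0 to 918 ± 193 CPM (SD, n = 3 each; 2.17 ± 0.21 SE on the log2 scale, edgeR adjusted p = 3.36e-06). Of 11 genes of globins and the alpha chaperone, 9 rose and none fell. Among them was the gamma-globin gene HBG2, which went from 34.2 ± 2.08 to 118 ± 27.2 CPM (SD, n = 3 each; 1.79 ± 0.20 SE on the log2 scale, edgeR adjusted p = 1.23e-05), while BCL11A rose as well. Partner genes were 1 of 23 higher and 0 lower (median -0.12). Other factors of the programme were 4 of 16 higher and 2 lower (median 0.34), with KLF10, FOXO3 and KLF6 at 1.11 ± 0.19 SE, 0.98 ± 0.16 SE and 0.88 ± 0.13 SE. Of 4 progenitor genes tested, 2 fell and none rose, HHEX at -2.61 ± 0.15 SE and KIT at -0.95 ± 0.20 SE. The progenitor marker ITGA4 was at 96.7 ± 5.06 CPM in expansion and 99.4 ± 9.98 CPM in differentiation (SD, n = 3 each). With the block, against 36.8% of genes, partner genes were 2 higher and 6 lower and other factors 7 and 2. Membrane genes were then 18 higher and 0 lower, haem and iron genes 12 and 0, globins with the alpha chaperone 10 and 0. Progenitor genes were 0 higher and 3 lower. Globin genes took 8.16% to 9.40% of all counts in differentiated DMSO libraries against 3.18% to 3.60% in expansion. Scaling by library totals moved the median of all genes to -0.12 and the share of calls that were higher from 51.7% to 29.3%.

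After SGC0946 pretreatment, differentiation again lowered GATA2, and TAL1 was the factor called higher. Of the 10 members 1 was called higher and 1 lower against 13.2% of 9848 genes called (7.36% higher and 5.85% lower). With library totals the share of calls that were higher went from 55.7% to 39.0%. GATA2 fell from 65.0, 82.2 and 67.8 CPM to 14.7, 16.5 and 19.1 CPM, 4.26-fold and without overlap (-2.09 ± 0.14 SE on the log2 scale, edgeR adjusted p = 8.62e-08). TAL1 rose from 32.6, 29.95 and 34.8 CPM to 42.3, 45.3 and 47.9 CPM, also without overlap (0.48 ± 0.12 SE on the log2 scale, edgeR adjusted p = 0.0121). The TAL1 call was lost without differentiation SGC0946 replicate 3 or expansion SGC0946 replicate 2 (0.42 to 0.43, edgeR adjusted p = 0.0562 to 0.0573), and without the filter on low counts (0.46, edgeR adjusted p = 0.0629). KLF1 was at 1363, 1744 and 1607 CPM in expansion and at 1517, 1777 and 1688 CPM in differentiation, overlapping, with a log2 fold change of 0.080 (edgeR adjusted p = 0.753) that was -0.0078 with library totals. BCL11A was at 6.60, 8.75 and 9.04 CPM and 8.91, 10.2 and 9.85 CPM, at 0.24 (edgeR adjusted p = 0.391), and LMO2 had a change of 0.030 (edgeR adjusted p = 0.895), or -0.061 with library totals.

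With the replicate block 5 members were called, against 32.7% of genes. NFE2 went from 295, 383 and 354 CPM to 389, 494 and 482 CPM, at 0.40 (edgeR adjusted p = 0.0968) without and 0.41 ± 0.047 SE (edgeR, adjusted p = 3.54e-10) with the block. GATA1 went from 263, 405 and 366 CPM to 319.6, 459 and 394 CPM, each library up on its partner, at 0.18 (edgeR adjusted p = 0.592) without and 0.19 ± 0.050 SE (edgeR, adjusted p = 0.00258) with the block. GFI1B moved from 0.27 (edgeR adjusted p = 0.551) to 0.27 ± 0.054 SE (edgeR, adjusted p = 4.57e-05). ZBTB7A was not called, at 0.34 (edgeR adjusted p = 0.232). ZFPM1 was not called either, at 0.80 (edgeR adjusted p = 0.177), and was called without expansion SGC0946 replicate 2 at 1.37 (edgeR adjusted p = 0.0392). Without the block, and against 13.2% of all genes, membrane genes were 14 of 19 higher and 0 lower (median 0.56), haem and iron genes 10 of 15 higher and 0 lower (median 0.48) and globins with the alpha chaperone 10 of 11 higher and 0 lower (median 1.54) on the log2 scale. SLC4A1 rose from 43.7 ± 1.19 to 149 ± 4.57 CPM (SD, n = 3 each; 1.77 ± 0.11 SE on the log2 scale, edgeR adjusted p = 6.25e-08).

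**Figure D3:**
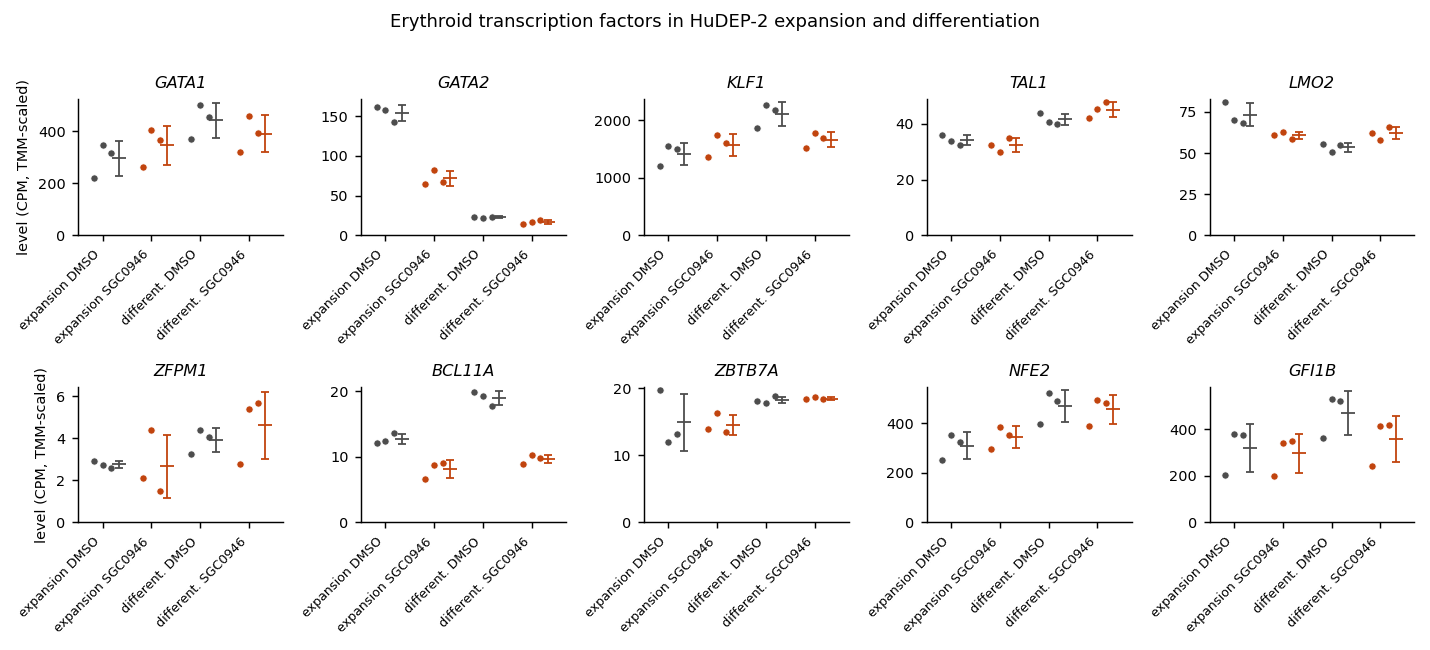
Level of each factor in TMM-scaled CPM (vertical axes from 0) in the 12 HuDEP-2 libraries of the differentiation experiment, with 1 point per library after DMSO (grey) or SGC0946 (orange); the bar is the mean and SD of 3 libraries. GATA2 is lower with SGC0946 in expansion, and all 6 differentiated libraries are at or under 23.6 CPM.

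In differentiated cells, SGC0946 pretreatment left 1 member called, BCL11A, which was lower. The background was 8.38% of 9848 genes called (6.37% higher and 2.01% lower). BCL11A was at 19.8, 19.3 and 17.7 CPM after DMSO and at 8.91, 10.2 and 9.85 CPM after SGC0946. The highest SGC0946 library was far under the lowest DMSO library, 1.96-fold lower (-0.97 ± 0.16 SE on the log2 scale, edgeR adjusted p = 0.000800), and the call was kept with any 1 library left out. HBG1 and HBG2, which BCL11A represses, were higher in the same libraries, HBG1 from 86.1 ± 11.1 to 628 ± 95.8 CPM (SD, n = 3 each; 2.87 ± 0.18 SE on the log2 scale, edgeR adjusted p = 5.14e-08) and HBG2 from 118 ± 27.2 to 972 ± 222 CPM (SD, n = 3 each; 3.04 ± 0.20 SE on the log2 scale, edgeR adjusted p = 8.59e-08). The embryonic alpha-type gene HBZ was higher too, at 2.48 ± 0.23 SE. HBG2 also rose with differentiation after DMSO, where BCL11A rose as well. A link between the levels of BCL11A and the gamma-globin genes was not tested. ZBTB7A, the other gamma-globin repressor of the set, was at 18.2, 17.8 and 18.8 CPM and 18.3, 18.7 and 18.4 CPM, overlapping (0.015 on the log2 scale, 95% interval -0.35 to 0.38, edgeR adjusted p = 0.975).

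GATA2, already low, was at 23.2, 21.8 and 23.6 CPM after DMSO and at 14.7, 16.5 and 19.1 CPM after SGC0946. The groups did not overlap, and GATA2 missed the threshold without the block, at -0.44 (edgeR adjusted p = 0.0596), and passed it with the block, at -0.44 ± 0.12 SE (edgeR, adjusted p = 0.00395). With the block 5 members were called, all lower, against 24.9% of genes. KLF1 was at 1868, 2258 and 2179 CPM after DMSO and 1517, 1777 and 1688 CPM after SGC0946, without overlap, at -0.34 (edgeR adjusted p = 0.147) without and -0.34 ± 0.036 SE (edgeR, adjusted p = 3.86e-11) with the block. GFI1B was at 360.1, 527 and 521 CPM and 242, 414 and 415 CPM, where each SGC0946 library was below its partner, and moved from -0.39 (edgeR adjusted p = 0.442) to -0.42 ± 0.052 SE (edgeR, adjusted p = 5.16e-09). GATA1 moved from -0.18 (edgeR adjusted p = 0.681) to -0.18 ± 0.049 SE (edgeR, adjusted p = 0.00391). NFE2 (-0.044, edgeR adjusted p = 0.920), TAL1 (0.12, edgeR adjusted p = 0.621), LMO2 (0.21, edgeR adjusted p = 0.298) and ZFPM1 (0.25, edgeR adjusted p = 0.759) were not called in either fit. Against 8.38% of all genes called, the partners were 1 of 23 higher and 1 lower (median 0.16), other factors of the programme 2 of 16 higher and 2 lower (median 0.18), haem and iron genes 1 of 15 higher and 0 lower (median -0.080), membrane genes 1 of 19 higher and 1 lower (median -0.061) and globins with the alpha chaperone 5 of 11 higher and 0 lower (median 0.32) on the log2 scale. Among them, IKZF1 (-0.67 ± 0.13 SE), the erythropoietin receptor EPOR (-0.49 ± 0.14 SE) and HDAC2 (-0.57 ± 0.12 SE) were lower and KDM1A (0.79 ± 0.18 SE), ALAS1 (0.76 ± 0.13 SE) STAT5A (0.65 ± 0.12 SE) and the blood group gene RHCE (0.48 ± 0.13 SE) higher. With the block, against 24.9% of genes, the partners were 4 higher and 4 lower and other factors 5 and 3. Haem and iron genes were then 3 higher and 2 lower, membrane genes 2 and 4, and globins with the alpha chaperone 6 and 2. The SGC0946 libraries here were shallower, at 5583064 to 7104139 counts against 9409578 to 13681475.

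Whether the pretreatment changed the response to differentiation was tested as the difference of both responses. Without the block edgeR called 0 of the 10 members, with 3 at an unadjusted p under 0.05 and 0 by DESeq2 or limma-voom, against 0.477% of 9848 genes called (0.396% higher and 0.0812% lower after SGC0946). With the block 6 members were called against 9.01% of genes. Positive values mean a higher response after SGC0946. GATA2, whose expansion level was lower after SGC0946, had a difference of 0.67 (edgeR adjusted p = 0.160) without and 0.67 ± 0.15 SE (edgeR, adjusted p = 0.00112) with the block. LMO2 had a difference of 0.48 (edgeR adjusted p = 0.274) without and 0.48 ± 0.12 SE (edgeR, adjusted p = 0.00472) with the block. For KLF1 it was -0.49 (edgeR adjusted p = 0.417) without and -0.49 ± 0.051 SE (edgeR, adjusted p = 1.07e-10) with the block, and for GATA1 -0.40 (edgeR adjusted p = 0.724) without and -0.41 ± 0.070 SE (edgeR, adjusted p = 2.39e-05) with the block. GFI1B differed by -0.28 (edgeR adjusted p = 0.888) without and -0.31 ± 0.074 SE (edgeR, adjusted p = 0.00296) with the block. NFE2 differed by -0.20 (edgeR adjusted p = 0.856) without and -0.20 ± 0.066 SE (edgeR, adjusted p = 0.0454) with the block. TAL1 (0.19, edgeR adjusted p = 0.787), BCL11A (-0.33, edgeR adjusted p = 0.725), ZFPM1 (0.30, edgeR adjusted p = 0.919) and ZBTB7A (0.045, edgeR adjusted p = 0.982) were called in neither fit.

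**Figure D4:**
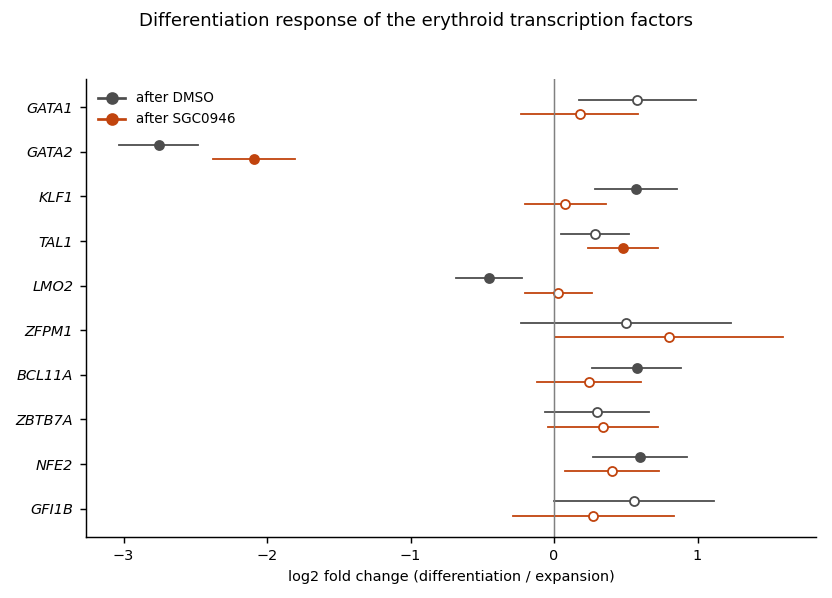
Log2 fold change of each factor in differentiation against expansion (horizontal axis) after DMSO (grey) and after SGC0946 (orange), with 95% intervals from edgeR without the replicate block; filled points passed an adjusted p of 0.05. GATA2 fell by 2.76 after DMSO and by 2.09 after SGC0946, and the KLF1 point moves from 0.57 to 0.080.

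The ratio of GATA1 to GATA2 counts within a library does not depend on the scaling and was read across libraries only, since read counts of different genes at their 3′ ends are not molecule numbers. It is given with no test. In HuDEP-2 at 168 h it was 0.904, 0.851, 0.909 and 0.961 with DMSO and 2.02, 2.24, 2.27 and 2.16 with SGC0946. In expansion it was 1.36, 2.21 and 2.21 after DMSO and 4.05, 4.93 and 5.40 after SGC0946. At 168 h and in expansion the SGC0946 libraries lay above all DMSO libraries of the same set. In differentiation the ratio was 15.9, 23.0 and 19.2 after DMSO and 21.8, 27.7 and 20.6 after SGC0946, ranges that overlapped and lay above every expansion library. K562 had ratios of 11.4, 10.6, 9.87 and 10.3 with DMSO and 11.4, 13.0, 11.0 and 11.6 with SGC0946. On the log2 scale the group means ran from -0.14 ± 0.072 (SD, n = 4) in HuDEP-2 at 168 h with DMSO to 4.54 ± 0.23 (SD, n = 3) in differentiated cells after SGC0946.

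**Figure D5:**
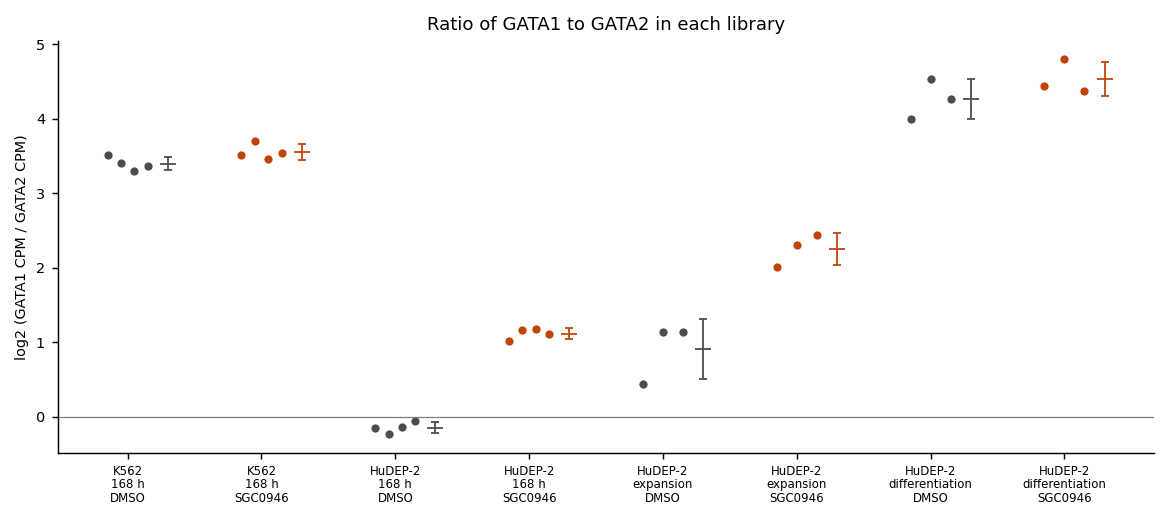
Log2 ratio of GATA1 to GATA2 level (vertical axis) in each of the 28 libraries, grouped by line, medium and treatment, with DMSO in grey and SGC0946 in orange; the bar is the mean and SD of a group. In HuDEP-2 the ratio is higher with SGC0946 at 168 h and in expansion, each against the DMSO libraries of its own experiment, and highest in differentiation.

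Over the 12 libraries of the differentiation experiment, the genes whose log2 levels were most like those of GATA2 were CCND1 (cyclin D1, Pearson r = 0.991) and ITGA2B (0.979). CCND1 went from 108 ± 6.89 to 62.2 ± 2.57 CPM with SGC0946 in expansion and to 34.6 ± 0.472 CPM with differentiation after DMSO (SD, n = 3 each). The nearest genes of GATA1 were SLC29A1, a nucleoside transporter (0.987), and ALAD, a haem synthesis enzyme (0.975), and those of KLF1 were SYNGR1 (0.981) and BCKDHA (0.976). ALAD was at 152 ± 32.9 CPM in expansion and 257 ± 41.8 CPM in differentiation after DMSO. These correlations describe 12 libraries that share replicate numbers and 4 conditions.

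The tables were scaled separately, so levels of different tables are set side by side without a test. GATA2 was lowest after differentiation with SGC0946 (16.8 ± 2.22 CPM, SD, n = 3), next with DMSO (22.8 ± 0.947 CPM, SD, n = 3) and in K562, and highest in HuDEP-2 at 168 h with DMSO (219 ± 26.9 CPM, SD, n = 4). GATA1 ran from 198 ± 16.7 CPM (SD, n = 4) in HuDEP-2 at 168 h to 441 ± 66.8 CPM (SD, n = 3) in differentiation, and in expansion its SGC0946 and DMSO groups overlapped. KLF1 was at 204 ± 32.5 CPM (SD, n = 4) in K562 with DMSO and at 1202 CPM or more in every HuDEP-2 library. GFI1B and NFE2 were also lower in every K562 DMSO library than in any HuDEP-2 library. BCL11A was at 6.60 to 9.04 CPM in the lowest HuDEP-2 group, expansion after SGC0946, and at 17.7 to 19.8 CPM in differentiation after DMSO. ZFPM1 stayed at or under 5.67 CPM and ZBTB7A at or under 19.8 CPM in all 28 libraries. ZBTB7A was at 2.15 to 6.06 CPM in K562, below every HuDEP-2 library, of which the lowest was at 8.62 CPM.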

How the data were processed

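Gene counts of 28 libraries of K562 and HuDEP-2 cells were analysed. The authors trimmed the 3′ RNA-seq reads with bbmap, aligned them to GRCh38 and counted reads per gene with STAR, and deposited raw counts. The labels name 2 3′ library kits without saying which made which library, and the strand setting of the counting is not given in the sources used here. The labels of the K562 and HuDEP-2 168 h samples name the organism as Mus musculus, while the counts are on human genes and both lines are human. Columns were matched to samples by the letters and replicate number in their names, and in the K562 table, which has an extra tab, by position. Another 21 per-sample columns of the 3 tables were not used, and 3 columns of MOLM13 DMSO libraries in the K562 table were read for depth and levels and enter no fit or result. Library totals ran from 5216015 to 13681475 counts, so that genes of a few CPM rest on few reads.

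Each table was fitted in 1 model with edgeR 4.0.16 in R 4.3.3 (quasi-likelihood F test, TMM scaling), without a replicate block, on genes at 2 CPM or more in at least 2 libraries. P-values were adjusted by the Benjamini-Hochberg method over all genes tested, and a gene was called at an adjusted p under 0.05. The K562 and HuDEP-2 168 h tables were joined in 1 further model for the comparison of lines. CPM values are TMM-scaled, and 95% intervals are not adjusted for multiple testing. In the differentiation experiment same-numbered libraries deviated from their group means together (18 of 18 correlations over 0.1, from 0.33 to 0.74). A blocked fit is therefore printed where it changes the call of a member. Counts of the other lists and values of their genes are without the block unless it is named. In K562 and HuDEP-2 at 168 h only 1 of 4 and 0 of 4 correlations passed that limit. The alternatives were RLE size factors, library totals, no filter, DESeq2 1.42.0, limma-voom (limma 3.58.1), an adjusted p under 0.1, the block, the compared libraries alone and each library left out. The scripts were tested on simulated data with 200 changed genes.

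The members and the lists of other genes were chosen with earlier results of these data known. All 10 members are named in every comparison. From each other list at most 3 called genes with the largest changes and at least 5 CPM in 1 group were eligible to be named, and for GATA1, GATA2 and KLF1 the 2 most correlated genes. Upstream windows come from GENCODE v44 on GRCh38, and some windows and list genes are not reported here.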

Additional observations from a re-analysis of the deposited data

Results flagged for a closer look

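Of 38 groups of 4 libraries tested for a library far from the others (Dixon's test at the 95% level, which flags about 1 in 20 groups by chance), 6 had one. KLF1 was at 156 CPM in K562 DMSO replicate 4 and at 364 CPM in K562 SGC0946 replicate 2, each below the other 3 libraries of its group. TAL1 was at 44.2 CPM in HuDEP-2 168 h SGC0946 replicate 1, above the others. ZFPM1 was at 3.37 CPM in HuDEP-2 168 h DMSO replicate 3, also above. ZBTB7A was at 6.06 CPM in K562 DMSO replicate 2 and at 14.6 CPM in HuDEP-2 168 h SGC0946 replicate 3, the highest of both groups. Groups of 3 libraries were not tested.

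The change with SGC0946 differed between K562 and HuDEP-2 at 168 h, by the test of the difference itself, for 4 factors. The K562 minus HuDEP-2 difference on the log2 scale was 1.17 for GATA2, 1.06 for LMO2, 1.03 for KLF1 and 0.93 for NFE2. Line, culture medium and library set cannot be told apart in this comparison.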

How the results depend on the processing

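Apart from leaving out libraries, 612 of 672 recomputed values kept their direction and side of the threshold, and of 670 with 1 library left out 612 did. No called value changed sign. ZFPM1 had 1 to 52 counts per library. The causes of the changes below were not tested.

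The replicate block moved the differentiation experiment most. In expansion, SGC0946 against DMSO gave 1518 genes and 6 factors with the block (380 and 2 without). Differentiation against expansion gave 3622 genes and 8 factors after DMSO (1548 and 5) and 3223 genes and 5 factors after SGC0946 (1301 and 2). SGC0946 against DMSO in differentiation gave 2455 genes and 5 factors (825 and 1), and the difference of responses gave 887 genes and 6 factors (47 and 0). In the 168 h libraries, where same-numbered libraries varied together little, the block gave 3530 genes and 4 factors in K562, and 682 genes and 2 factors in HuDEP-2, where LMO2 was not called. The labels do not say whether those libraries were paired.

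Library totals left 1 factor called in HuDEP-2 at 168 h (3 with TMM). In expansion 1 factor stayed called for SGC0946 without the filter, with libraries thinned to the smallest (chosen after seeing the data) or with the compared libraries alone. Without the filter, 1 factor was called for differentiation after SGC0946. For SGC0946 in differentiation 2 factors were called without the filter, with DESeq2 or at an adjusted p under 0.1. The difference of responses gave 121 genes without the filter, 125 with DESeq2 and 78 at 0.1.

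With 1 library left out, the ranges were 3040 to 3691 genes and 3 to 4 factors in K562, 68.2% to 123% of the 824 genes and 1 to 3 factors in HuDEP-2 at 168 h, 249 to 309 genes and 1 factor in expansion, 1039 to 1390 and 4 to 6 for differentiation after DMSO, 794 to 1084 and 1 to 2 after SGC0946, 514 to 693 and 1 for SGC0946 in differentiation, 23 to 44 and 0 for the difference of responses, and 1858 to 2266 and 4 to 5 for K562 against HuDEP-2.

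Values that were not called changed sign as follows. With library totals, GATA2 in K562 was at -0.031 (-0.088 when thinned), KLF1 after SGC0946 in differentiation against expansion at -0.0078, LMO2 there at -0.061 (-0.0019 when thinned), and GATA1 in K562 against HuDEP-2 at -0.042. ZBTB7A in expansion was at 0.014 with limma-voom, ZFPM1 there at 0.024 when thinned, and ZBTB7A for SGC0946 in differentiation at -0.028 without the filter. With 1 library left out, GATA2 in K562 ran from -0.048 to 0.083; in HuDEP-2 at 168 h KLF1 from -0.17 to 0.067, TAL1 from -0.017 to 0.19 and ZBTB7A from -0.30 to 0.10. In expansion ZFPM1 ran from -0.63 to 0.25, ZBTB7A from -0.17 to 0.21 and GFI1B from -0.36 to 0.10. For differentiation after SGC0946 LMO2 ran from -0.015 to 0.065 and KLF1 from -0.019 to 0.16. For SGC0946 in differentiation ZBTB7A ran from -0.0046 to 0.032 and NFE2 from -0.16 to 0.050. For the difference of responses ZBTB7A ran from -0.19 to 0.19, and for K562 against HuDEP-2 ZFPM1 from -1.07 to 0.17.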

Other observations

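Outside the erythroid lists, a few genes of neighbouring blood lineages were called in HuDEP-2. At 168 h CEBPA, a granulocyte factor, went from 1.30 ± 1.49 to 6.004 ± 1.14 CPM (SD, n = 4 each; 2.33 ± 0.57 SE on the log2 scale, edgeR adjusted p = 0.0102) with SGC0946. In expansion CD33, a surface protein of myeloid progenitors, went from 0.586 ± 0.222 to 10.3 ± 2.90 CPM (SD, n = 3 each; 4.09 ± 0.51 SE on the log2 scale, edgeR adjusted p = 0.000125), and ITGA2B, the platelet integrin alpha chain, from 12.7 ± 1.38 to 7.30 ± 1.53 CPM (SD, n = 3 each; -0.80 ± 0.20 SE on the log2 scale, edgeR adjusted p = 0.0311). ITGA2B fell further with differentiation after DMSO, from 12.7 ± 1.38 to 3.34 ± 0.294 CPM (SD, n = 3 each; -1.92 ± 0.21 SE on the log2 scale, edgeR adjusted p = 1.12e-05), and CD33 fell with differentiation after SGC0946, from 10.3 ± 2.90 to 1.71 ± 0.869 CPM (SD, n = 3 each; -2.60 ± 0.48 SE on the log2 scale, edgeR adjusted p = 0.00202). HHEX, a homeobox gene of progenitors, was lower with SGC0946 in expansion (-0.63 ± 0.14 SE) and higher with it in differentiation (0.62 ± 0.16 SE). The progenitor marker ITGA4 was lower with SGC0946 in differentiation, from 99.4 ± 9.98 to 63.7 ± 3.18 CPM (SD, n = 3 each; -0.64 ± 0.11 SE on the log2 scale, edgeR adjusted p = 0.00118). Of 4 progenitor genes tested in that comparison, 2 were higher and 1 lower, against 8.38% of all genes called. In K562, MPO, the granule peroxidase, went from 5.74 ± 5.65 to 0.763 ± 0.210 CPM (SD, n = 4 each; -2.88 ± 0.59 SE on the log2 scale, edgeR adjusted p = 0.000579) with SGC0946, and LYZ, lysozyme, from 17.0 ± 9.28 to 34.9 ± 8.17 CPM (SD, n = 4 each; 1.03 ± 0.25 SE on the log2 scale, edgeR adjusted p = 0.00268). In K562, MPO had 180 counts over the DMSO libraries and 32 over the SGC0946 libraries. Its SD with DMSO was about as large as its mean, and the LYZ groups overlapped. The part of cells of these lineages in the results on the erythroid factors was not tested.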
